A study of Homo sapiens with 6 samples.

Results

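The region described here is the stretch of chromosome 5 from about 2 to 10 Mb below the FGF18 viewpoint, chr5:160852458-168852457 (hg19), where "below" means the centromeric side. It was chosen by position alone, as the HindIII fragments whose midpoints fall in those 8 Mb. It held 1506 of the 20398 chr5 fragments, and of the 206896 fragments genome-wide, that had a read in any library. The libraries came from K562, an established line of erythroid-like cells from a patient with chronic myeloid leukaemia, and were made by 4C-seq. That assay fixes chromatin with formaldehyde, cuts and religates it, and sequences whatever became joined to 1 chosen fragment, the viewpoint. FGF18 encodes a secreted fibroblast growth factor, and the design asks whether excising silencer elements changes what it touches. There were 3 groups of 2 libraries: K562 cells with empty vector (EV), cells with silencer 1 knocked out (S1KO), and cells with silencer 1 and silencer 2 knocked out (DKO). The labels' treatment protocol names CRISPR excision for all 3 groups, while the EV libraries carry the treatment label "untreated". Whether each group was a clone or a pool is not given in the sources used here, and no label calls the replicates separate cultures. The p-values therefore speak only of the spread among these libraries, which may be technical.

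A chromosome in the nucleus folds into domains, and contacts of a locus fall with distance. At distances of several megabases, expressed gene-rich chromatin and silent gene-poor chromatin tend to lie apart, so a long-range 4C profile often has islands. The genes are given here in RefSeq order (GRCh38.p14). At the far end lies a GABA receptor stretch with GABRB2 and GABRA6, which encode subunits of the GABA-A receptor, the chloride channel of inhibitory synapses. Next come CCNG1 (cyclin G1), NUDCD2 (a NudC-domain protein), HMMR (a hyaluronan receptor that also binds the mitotic spindle) and MAT2B (the regulatory subunit of a methionine adenosyltransferase). TENM2 encodes a teneurin, a cell-adhesion protein of neurons. Nearest the viewpoint are WWC1 (KIBRA, a scaffold of the Hippo pathway), RARS1 (arginyl-tRNA synthetase), FBLL1 (a fibrillarin-like protein), PANK3 (pantothenate kinase, of coenzyme A synthesis) and SLIT3 (a secreted guidance ligand for ROBO receptors). RefSeq lists 0 protein-coding genes between MAT2B and TENM2, with 9 lncRNA genes there. The windows of that interval are called the second desert, and the gene-poor windows between the GABA receptor stretch and CCNG1 the first desert. No hg19 annotation was used: genes were placed to the nearest 250-kb window from general knowledge of the region, and only their order was checked against RefSeq.

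Counted in 32 windows of 250 kb, 13 windows held genes, 18 were desert, and 1 beside the start of TENM2 was left unassigned because gene models differ there. The GABA receptor stretch was chr5:160852458-161602457, the CCNG1 to MAT2B window chr5:162852458-163102457, the TENM2 stretch chr5:166602458-167602457, the WWC1 to PANK3 stretch chr5:167602458-168102457 and the SLIT3 stretch chr5:168102458-168852457. The files carry no fragment sequences. To show the range of promoter sequence in the region, the 250 bases upstream of 3 start sites are given. The sequences come from RefSeq (GRCh38.p14, on the gene's strand), with each CG dinucleotide in capitals. There is 1 from the WWC1 to PANK3 stretch, 1 from the CCNG1 to MAT2B window and 1 from the GABA receptor stretch. They were chosen after their CG counts were seen and do not stand for their stretches, since counts within a stretch vary widely, and the table's entries for 12 genes of the region were used.
PANK3: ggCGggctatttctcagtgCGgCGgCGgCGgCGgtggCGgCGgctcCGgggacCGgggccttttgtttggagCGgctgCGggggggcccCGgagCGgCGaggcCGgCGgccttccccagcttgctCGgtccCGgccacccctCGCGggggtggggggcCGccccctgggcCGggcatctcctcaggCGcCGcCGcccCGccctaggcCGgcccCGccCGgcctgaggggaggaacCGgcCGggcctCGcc
NUDCD2: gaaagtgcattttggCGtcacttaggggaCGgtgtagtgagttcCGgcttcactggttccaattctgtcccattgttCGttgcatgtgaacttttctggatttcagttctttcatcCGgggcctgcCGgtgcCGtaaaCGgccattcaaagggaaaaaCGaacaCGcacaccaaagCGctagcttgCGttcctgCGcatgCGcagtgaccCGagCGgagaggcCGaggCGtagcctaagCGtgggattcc
GABRA6: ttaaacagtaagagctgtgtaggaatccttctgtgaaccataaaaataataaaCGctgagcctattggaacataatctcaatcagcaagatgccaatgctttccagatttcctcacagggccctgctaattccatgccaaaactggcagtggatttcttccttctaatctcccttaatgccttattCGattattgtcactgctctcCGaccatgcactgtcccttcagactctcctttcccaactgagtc
The PANK3 sequence holds 33 CG dinucleotides, more than 91.9% of the 35116 promoters in the table. That of NUDCD2 holds 19 and that of GABRA6 3, where the median promoter holds 11 (the motif CG reads the same on both strands). WWC1, RARS1 and FBLL1 hold 23, 19 and 17, SLIT3 16, CCNG1 16, HMMR 10 and GABRB2 11. MAT2B and TENM2, at the starts this table gives, hold 1 each. No HindIII site (AAGCTT) lies in any of the 12.

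The libraries differed in yield before any comparison. They held 708503 to 1919737 reads in all and 149032 to 468793 reads on chr5 outside the 10 kb beside the viewpoint. In the region, EV replicates 1 and 2 had 504 and 232 fragments with reads, S1KO replicates 527 and 379, and DKO replicates 510 and 719. EV replicate 2 stands apart with the fewest, although it had the most reads in all, 1919737. On chr5 outside that zone it had 205665 reads, against 149032 in EV replicate 1. Median reads per listed fragment were 13 in EV replicate 1 and 22 to 39 in the other libraries, and reads without molecular identifiers are not independent molecules. Both measures are therefore given throughout: how many fragments had a read, and the reads. The authors' own q-values called no fragment here: the smallest deposited q in the region was 1 in every library, and the smallest deposited p was 0.223. Their calls below the viewpoint reached no farther than 62.1 kb from it. Single fragments repeated poorly. The EV replicates shared 79 fragments, 15.7% of those in replicate 1 and 34.1% of those in replicate 2. The S1KO replicates shared 147 (27.9% and 38.8%) and the DKO replicates 259 (50.8% and 36.0%).

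Within the region, fragments with reads were most frequent in 3 islands. Not every gene stretch was one of them. By fragments, the mean of 5 WWC1 to SLIT3 windows, and the CCNG1 to MAT2B window, exceeded the mean desert window in all 6 libraries. The other island, chr5:163602458-163852457, lay in the second desert. In EV replicate 2 the SLIT3 window nearest the viewpoint had 5 fragments, against 6.59 in the mean desert window outside that island. The GABA receptor stretch was below the mean of all deserts in all 6 libraries, and the TENM2 stretch lay on both sides of it. Those deserts lie nearer the viewpoint than the GABA receptor stretch. The ratio of that stretch to the 3 adjacent desert windows exceeded 1 in 3 of 6 libraries by fragments and 4 by reads. The level did not simply follow distance: the CCNG1 to MAT2B window, 7.75 to 8 Mb from the viewpoint, held more fragments than the mean TENM2 window, 3.25 to 4.25 Mb away, in every library. In EV the windows with most fragments were that of RARS1 to PANK3 (26 ± 18.4), that of CCNG1 to MAT2B (23 ± 12.7) and that of WWC1 (22.5 ± 9.19). Among those with fewest were the GABRB2 window at the far end (6 ± 5.66) and 2 neighbouring windows of the first desert (7 ± 4.24 and 7 ± 2.83; SD, n = 2). The contrasts between stretches are values within libraries, with no test. The island in the desert and the grouping of the 7 island windows were picked after the values were seen.

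**Figure D1:**
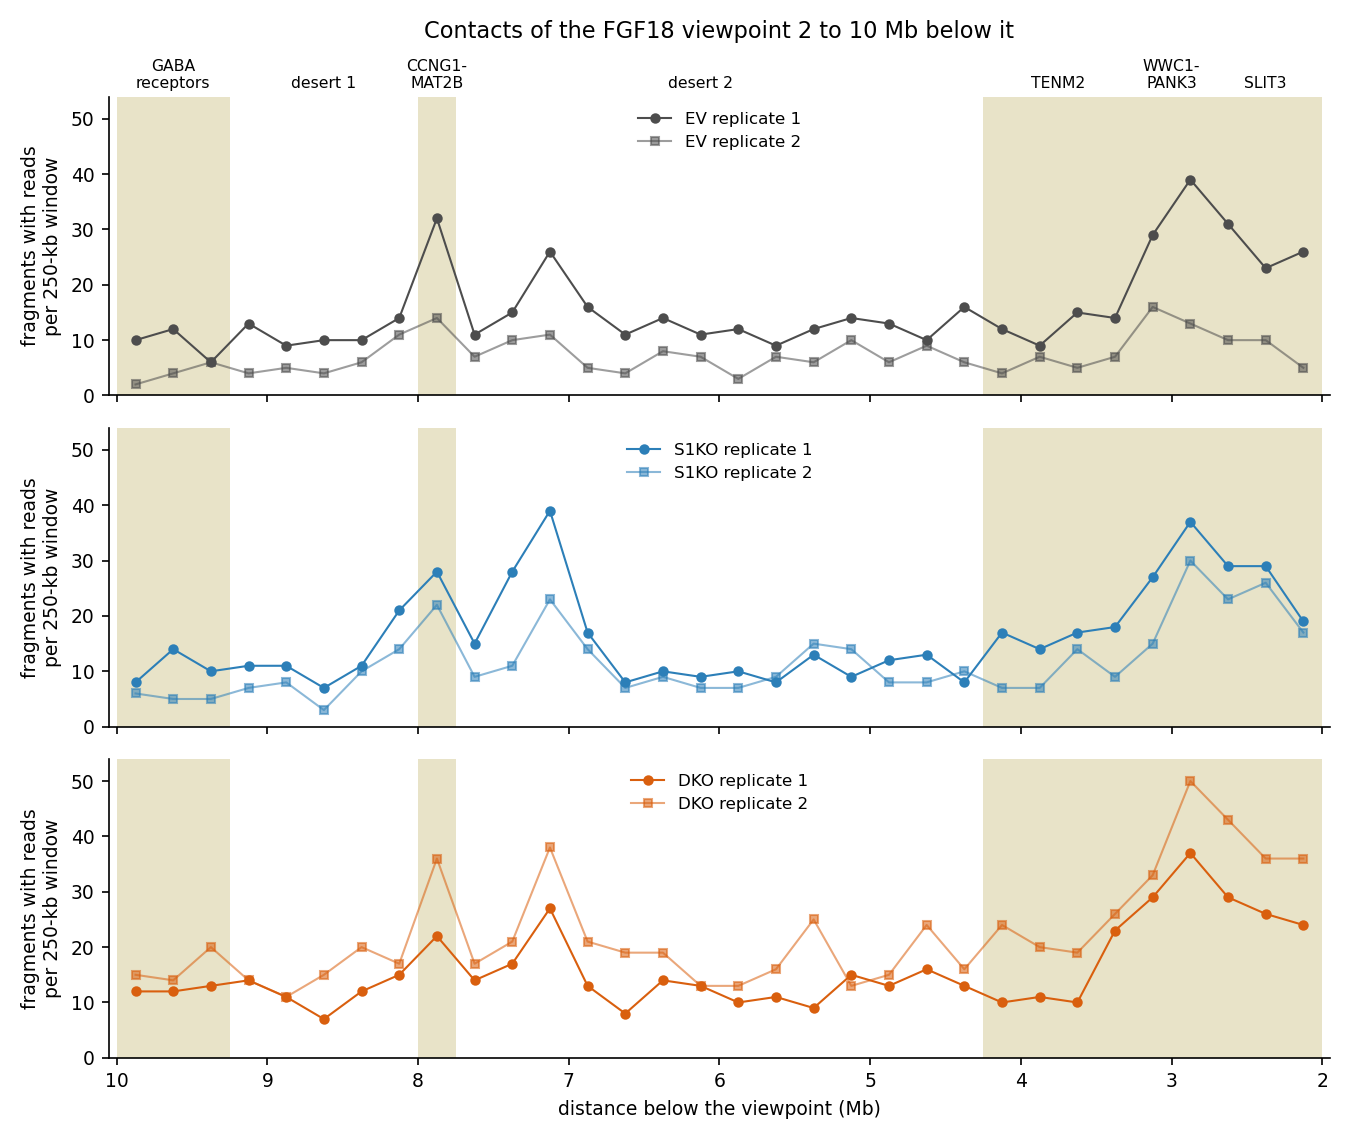
HindIII fragments with reads per 250-kb window (y axis) against distance below the viewpoint in Mb (x axis), 1 panel per group and 1 line per replicate, with windows that hold protein-coding genes shaded. Peaks stand at the CCNG1 to MAT2B window, at the desert window about 7 Mb away and from WWC1 to SLIT3, while the shaded GABA receptor and TENM2 stretches are as low as the unshaded deserts.

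The island nearest the viewpoint ran from WWC1 to SLIT3 and held the window with most fragments. The window chr5:167852458-168102457, which holds the end of WWC1 with RARS1, FBLL1 and PANK3, had 39 and 13 fragments in the EV replicates, 37 and 30 in the S1KO pair, and 37 and 50 in DKO. It ranked first of the 32 windows in the mean of each group. Summed over the 6 libraries it held 206 fragments, and 0 of the 698 chr5 windows more than 2 Mb from the viewpoint held more. The window before it, chr5:167602458-167852457, with the end of TENM2 and most of WWC1, had 29 and 16 in EV, 27 and 15 in the S1KO pair, and 29 and 33 in DKO. The EV replicates spanned or met the other groups in both windows, while both S1KO libraries lay below both DKO libraries in the window of WWC1. Across the border to TENM2 the level stepped down in every library: the last window of the TENM2 stretch, chr5:167352458-167602457, had 14 and 7 fragments in EV, 18 and 9 in the S1KO pair, and 23 and 26 in DKO. The 5 windows from WWC1 to SLIT3 held 2.12 ± 0.346 times the fragments of the TENM2 windows beside them in EV, 2.06 ± 0.489 in S1KO and 1.96 ± 0.260 in DKO (n = 2 each, SD). By reads these ratios were 2.58 ± 0.160, 2.81 ± 0.220 and 2.44 ± 0.139. This stretch is also the nearest to the viewpoint, so position and gene content cannot be told apart in it. The 3 SLIT3 windows averaged 26.7 and 8.33 fragments in the EV replicates, 25.7 and 22 in the S1KO pair, and 26.3 and 38.3 in DKO. EV replicate 2 was the lowest library there.

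The CCNG1 to MAT2B window stood out from its neighbours on both sides. It had 32 and 14 fragments in the EV replicates, 28 and 22 in the S1KO pair, and 22 and 36 in DKO, with no separation of the groups. Against the 4 adjacent desert windows it held 2.10 ± 0.646 times as many fragments in EV, 1.75 ± 0.358 in S1KO and 1.72 ± 0.285 in DKO (n = 2 each, SD). By reads the factor was 3.27 ± 0.082 for EV, 2.92 ± 1.43 for S1KO and 2.45 ± 0.319 for DKO. Both DKO libraries, at 2.22 and 2.67, lay below both EV libraries, at 3.33 and 3.22 (exact two-sided permutation p = 0.333, the smallest that 2 against 2 libraries can give), while the S1KO libraries, at 1.91 and 3.94, spanned all others. Of the 698 distant chr5 windows 6 held more fragments over the 6 libraries, 3 of them inside the region.

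The island in the second desert, chr5:163602458-163852457, lay 7 to 7.25 Mb from the viewpoint. It had 26 and 11 fragments in the EV replicates, 39 and 23 in the S1KO pair, and 27 and 38 in DKO. Against 4 desert windows beside it the ratio of fragments was 1.83 ± 0.191 for EV, 2.27 ± 0.036 for S1KO and 2.01 ± 0.091 for DKO (SD, n = 2 each). Both S1KO libraries lay above both EV libraries, by fragments and by reads (exact permutation p = 0.333 for each). By reads the ratios were 1.81 ± 0.507, 3.10 ± 0.105 and 2.68 ± 0.353. The edgeR fit over chr5 gave log2 0.62 (SE 0.34) for S1KO against EV by fragments and log2 0.96 (SE 0.61) by reads, with adjusted p-values of 0.978 and 0.993. With 1 library left out the second value ran from log2 0.35 to 2.04. This window is counted as desert in the comparison of genes with deserts.

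The GABA receptor stretch, 9.25 to 10 Mb away, had the lowest mean number of fragments of the 8 stretches in EV and S1KO. It averaged 9.33 and 4.00 fragments per window in the EV replicates, 10.7 and 5.33 in the S1KO pair, and 12.3 and 16.3 in DKO. In DKO it averaged 14.3 ± 2.83 and the first desert 13.6 ± 2.55 (SD, n = 2 each). By reads it was the lowest in EV, at 1115 ± 163 CPM per window, and in DKO, at 1138 ± 73.4, while in S1KO, at 957 ± 266, it was above the window before TENM2, at 660 ± 168. As a ratio to the 3 adjacent desert windows the fragments stood at 0.899 ± 0.034 for EV, 0.996 ± 0.152 for S1KO and 1.19 ± 0.049 for DKO. Both DKO libraries were above both EV and both S1KO libraries (exact permutation p = 0.333 for each). By reads the ratio was 1.11 ± 0.182 for EV, 1.13 ± 0.251 for S1KO and 1.14 ± 0.141 for DKO, and the groups overlapped.

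The TENM2 stretch, although it lies within a long gene, was at the level of the deserts. It averaged 12.5 and 5.75 fragments per window in EV, 16.5 and 9.25 in the S1KO pair, and 13.5 and 22.3 in DKO. Relative to all desert windows the ratio ran from 0.841 to 1.21 and exceeded 1 in 3 of 6 libraries, by reads also in 3 of 6. The GABA receptor stretch ran from 0.525 to 0.929 of the desert level, the CCNG1 to MAT2B window from 1.66 to 2.50 and the windows from WWC1 to SLIT3 from 1.58 to 2.32. The first and second desert averaged 8.60 ± 3.68 and 10.3 ± 4.41 fragments per window in EV, 10.3 ± 2.69 and 12.8 ± 2.72 in S1KO, and 13.6 ± 2.55 and 16.7 ± 4.03 in DKO (n = 2 each, SD).

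**Figure D2:**
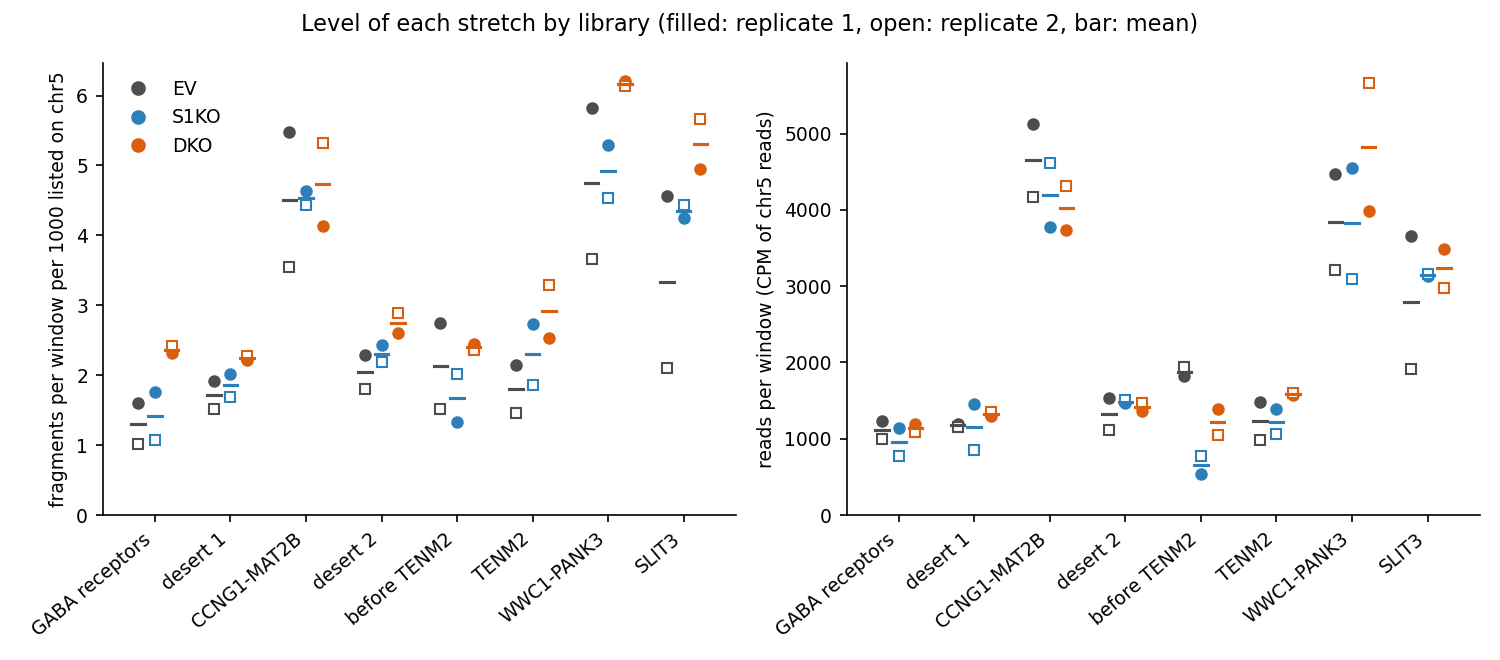
Level of each of the 8 stretches in every library, as fragments per 250-kb window per 1000 fragments listed on chr5 (left) and as reads per window in CPM of the library's chr5 reads (right), with filled points for replicate 1, open points for replicate 2 and a bar for the group mean. The CCNG1 to MAT2B and WWC1 to PANK3 points stand above the rest, the SLIT3 points do so except in EV replicate 2, and the GABA receptor and TENM2 points lie with the deserts.

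Gene windows as a class exceeded deserts, mostly through the windows from WWC1 to SLIT3. By fragments, a gene window held 1.55 and 1.16 times as many as a desert window in the EV replicates, 1.47 and 1.41 in the S1KO pair, and 1.49 and 1.56 in DKO. By reads the ratios were 1.85 and 1.58, 1.64 and 1.55, and 1.83 and 1.84. All 6 libraries were above 1 by either measure. Without the windows from WWC1 to SLIT3 the mean over the 6 libraries fell from log2 0.52 to 0.06 by fragments and from log2 0.78 to 0.24 by reads. With windows of at least 2 genes alone it was 0.90 and 1.35. Those windows were mainly islands: the CCNG1 to MAT2B window and the WWC1 to PANK3 stretch, beside a GABA receptor window. The EV libraries overlapped both knockout groups. DKO minus EV was log2 0.18 by fragments (exact permutation p = 0.667) and 0.10 by reads (exact permutation p = 1). S1KO minus EV was 0.10 (exact permutation p = 1) and -0.10 (exact permutation p = 0.667). DKO minus S1KO was 0.09 by fragments and 0.20 by reads, with both DKO libraries above both S1KO libraries and an exact permutation p of 0.333 for each.

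Fragments recurred across libraries mainly in the islands. Recurrence rises with the number of fragments seen per library, so it is not independent of the counts above. Of the 1506 fragments 728 (48.3%) had reads in 1 library and 16 (1.06%) in all 6. Fragments with reads in at least 3 libraries made up 74 of 117 from WWC1 to PANK3, 82 of 167 at SLIT3, 29 of 53 from CCNG1 to MAT2B and 31 of 62 in the island of the second desert. They made up 12 of 115 in the GABA receptor stretch, 26 of 214 in the first desert and 27 of 199 at TENM2. Of the 16 fragments seen in every library, 5 lay from WWC1 to PANK3, 4 at SLIT3, 3 from CCNG1 to MAT2B and 4 in the second desert, 2 of those in its island. The GABA receptor and TENM2 stretches held 0 of them. Length moved with recurrence: the median was 2107 bp for fragments seen in 1 library and 7132 bp for those seen in all 6, and its part in the result was not tested. Between gene windows and deserts length differed little, with medians of 2668 bp and 2684 bp, but that does not set the islands against the rest. The island medians were 2666.5 bp from WWC1 to SLIT3, 3241 bp from CCNG1 to MAT2B and 1891.5 bp in the desert island.

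**Figure D3:**
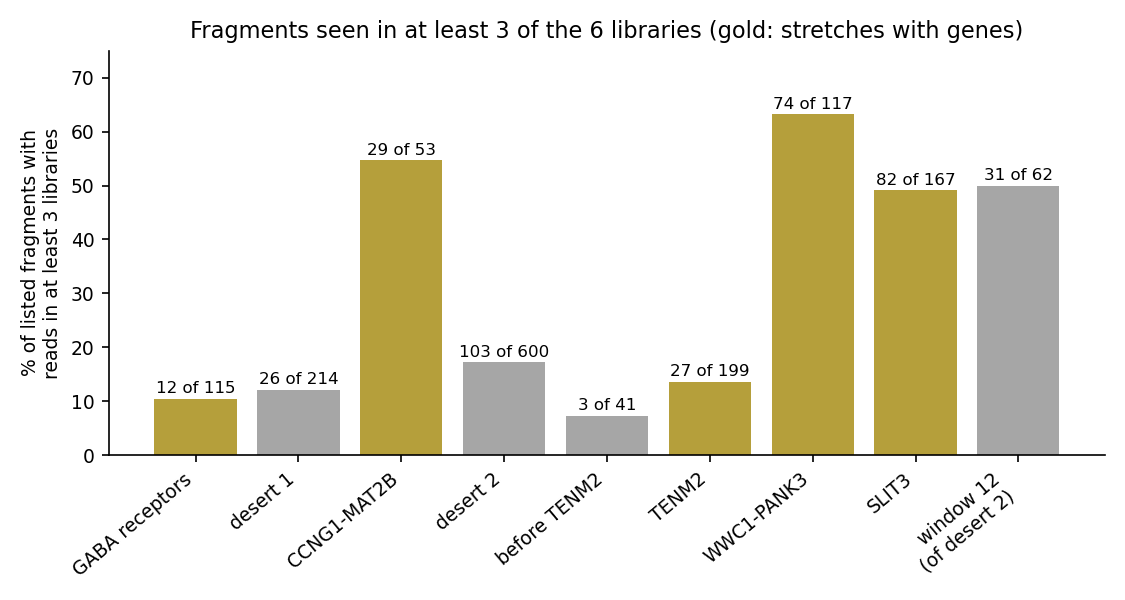
Percentage of the fragments listed in any library that had reads in at least 3 of the 6 libraries, per stretch, with gold bars for stretches that hold genes and the island of the second desert given on its own at the right. The bars for the 3 islands stand between 49.1% and 63.2%, and those of the GABA receptor and TENM2 stretches at 10.4% and 13.6%.

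The recurrent fragments varied widely in reads. Among them chr5:165160130-165170738, in the second desert, had the highest minimum, and raw reads also depend on each library's depth. It had 35 and 34 reads in the EV replicates, 40 and 33 in the S1KO pair, and 113 and 50 in DKO. In the CCNG1 to MAT2B window, chr5:162886383-162890022 had 29 and 63, 128 and 44, and 118 and 196 reads. Beside it, chr5:162863340-162867496 had 13 and 8 reads in EV, 157 and 211 in the S1KO pair, and 184 and 199 in DKO, so that all 4 knockout libraries lay above both EV libraries. Its level was 63.1 ± 34.2 CPM in EV, 732 ± 222 in S1KO and 425 ± 0.94 in DKO (CPM, reads scaled to each library's chr5 total; SD, n = 2 each). It was singled out after its values were seen. The neighbouring chr5:162868798-162883707 went the other way, with 59 and 117 reads in EV, 57 and 14 in the S1KO pair, and 80 and 62 in DKO. In CPM it held 482 ± 122, 134 ± 106 and 159 ± 37.4. No fragment was tested singly, because too few had reads in most libraries.
In the window of RARS1 to PANK3, chr5:167927703-167932132 had 103 and 54 reads in EV, 85 and 15 in the S1KO pair, and 18 and 115 in DKO. At SLIT3, chr5:168134171-168148716 had 25 and 86, 51 and 34, and 243 and 136 reads. Scaled to depth, EV replicate 2, at 418 CPM, was above DKO replicate 2, at 290 CPM. In the desert island, chr5:163773758-163776791 had 21 and 23 reads in EV, 128 and 43 in the S1KO pair, and 132 and 204 in DKO, and chr5:163752035-163755050 had 17 and 31, 135 and 58, and 80 and 40. Scaled to depth, the EV libraries remained the lowest for the first, at 141 and 112 CPM against 181 or more. For the second DKO replicate 2, at 85.3 CPM, was below both EV libraries, at 114 and 151. The remaining 2 of the 10 with the highest minimum were chr5:168081226-168088941 and chr5:168177431-168181985, with 12 to 212 reads per library. Of the 5 fragments with most EV reads in CPM, the first, chr5:166082421-166084434, rested on 1 EV library, with 0 and 203 reads in EV, 6 and 0 in the S1KO pair, and 0 and 6 in DKO. Of the others, chr5:167922592-167927690, in the window of RARS1 to PANK3, had 38 and 145, 136 and 0, and 0 and 178 reads. In the CCNG1 to MAT2B window chr5:162926338-162933788 had 46 and 129, 0 and 135, and 250 and 84. The last 2 are described above as recurrent, chr5:162868798-162883707 and chr5:167927703-167932132.

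The region's share of the chr5 fragments was highest in the 2 DKO libraries, although 2 against 2 libraries cannot give a p below 0.333. By fragments the share was 8.63% (95% Wilson interval 7.94% to 9.38%) and 5.87% (5.18% to 6.64%) in the EV replicates, 8.72% (8.03% to 9.46%) and 7.65% (6.94% to 8.42%) in S1KO, and 9.59% (8.83% to 10.4%) and 10.6% (9.92% to 11.4%) in DKO. The intervals cover counting error only. Both DKO libraries were above the other 4. DKO minus EV was 2.86 percentage points and DKO minus S1KO 1.93, both at p = 0.333 in the exact permutation test (two-sided), and S1KO minus EV was 0.93 (exact permutation p = 0.667). Leaving out EV replicate 2 gave 1.48 points for DKO minus EV, and leaving out EV replicate 1 gave 4.24. By reads the groups overlapped, with shares of 6.24% and 4.56% in EV, 5.81% and 5.15% in S1KO, and 5.77% and 6.11% in DKO, and DKO minus EV was 0.54 points (exact permutation p = 1). With each fragment's reads capped at the library's 90th percentile on chr5 the shares were 8.82% and 5.50%, 8.40% and 7.19%, and 9.74% and 10.6%. Both DKO libraries then lay above the other 4, by 3.01 points against EV and 2.37 against S1KO in the group means (exact permutation p = 0.333 for each). Summed into 1 row of the chr5 fit, the region stood at log2 0.57 (SE 0.24) for DKO against EV by fragments (edgeR adjusted p = 0.549), between 0.27 and 0.88 with 1 library left out. By reads it stood at 0.74 (SE 0.53, edgeR adjusted p = 0.877), and at 0.14 without TMM, edgeR's scaling between libraries by a trimmed mean.

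The region was also set against the same distances on the other side of the viewpoint, toward the telomere, where the DKO libraries again had the highest ratios. Reads 2 to 10 Mb below numbered 1.28 and 1.20 times those 2 to 10 Mb above in the EV replicates, 1.15 and 0.944 in the S1KO pair, and 2.54 and 2.02 in DKO. By fragments the ratios were 1.16 and 1.09, 1.17 and 0.927, and 2.06 and 1.59. By both measures the DKO libraries lay above all others. DKO minus EV was log2 0.87 by reads and 0.69 by fragments, and DKO minus S1KO log2 1.12 and 0.80, each with an exact permutation p of 0.333. S1KO minus EV was log2 -0.25 by reads (exact permutation p = 0.333), with both S1KO libraries below both EV libraries. By fragments S1KO minus EV was -0.11, and the groups overlapped. With 1 library left out DKO minus EV stayed between 0.70 and 1.04 by reads and between 0.50 and 0.88 by fragments. The side above was the lower in DKO replicate 1, with a mean of 7.72 fragments per window against 15.9 below. In DKO replicate 2 the means were 14.2 and 22.5, in the EV replicates 13.6 and 15.8 and then 6.62 and 7.25, and in S1KO 14.1 and 16.5 and then 12.8 and 11.8. The part of each side in this ratio was not tested.

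**Figure D4:**
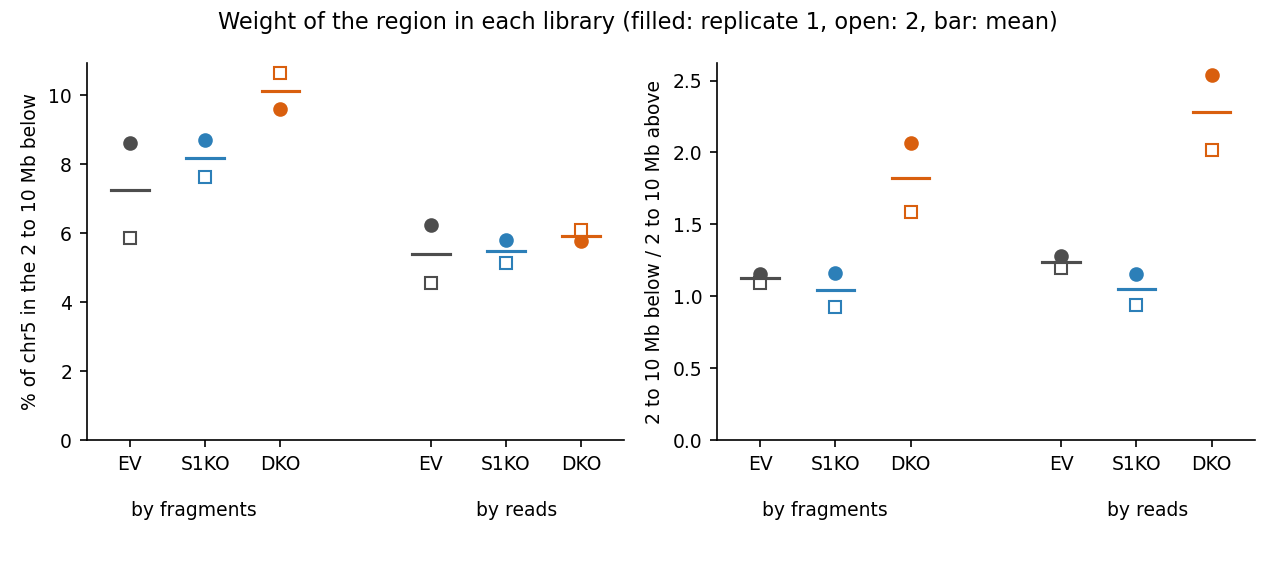
Share of chr5 that fell in the region, in percent (left), and the ratio of the region to the band 2 to 10 Mb above the viewpoint (right), each by fragments and by reads, with 1 point per library (filled for replicate 1, open for replicate 2) and a bar for the group mean. The DKO points are the highest for the share of fragments and for both ratios, and overlap the EV points for the share of reads.

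No single window passed a test in any comparison. For S1KO against EV, edgeR's quasi-likelihood test over all chr5 windows called 0 of the region's 32 windows at an adjusted p of 0.05, by fragments and by reads, beside 0% of the 597 and 708 chr5 windows tested. By fragments 0 windows had an unadjusted p under 0.05 and by reads 1, beside 17 of 597 and 24 of 708 on chr5. DESeq2 called 0 by each, with 0 and 1 under 0.05 unadjusted, beside 0 and 37 on chr5. The median window stood at log2 0.16 by fragments and 0.21 by reads, where the median of chr5 stood at 0.02 and 0.03. The lowest p by reads was that of chr5:166352458-166602457, the unassigned window before TENM2, at 1877 ± 82.6 CPM in EV and 660 ± 168 in S1KO (adjusted p = 0.993 by edgeR, log2 -1.29, SE 0.58). In DKO it held 1219 ± 243 CPM. Next came chr5:165352458-165602457 in the second desert (log2 1.14, SE 0.66) and the desert island. By fragments the lowest p-values were those of the desert island, of chr5:168352458-168602457 at SLIT3 (log2 0.62, SE 0.36) and of chr5:163352458-163602457 beside the island (log2 0.51, SE 0.42), all at an adjusted p of 0.978 by edgeR.

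For DKO against EV, 0 of 32 windows were called by either measure, again beside 0% of the chr5 windows. Under 0.05 unadjusted were 2 windows for each measure, beside 51 of 597 on chr5 by fragments and 44 of 708 by reads. DESeq2 called 0 of 32, with 0 by fragments and 6 by reads under 0.05 unadjusted. Over chr5 it called 0% of windows by fragments, with 7 under 0.05 unadjusted. By reads it called 1.13% (8 of 708, with 69 under 0.05 unadjusted). By fragments 31 of the 32 windows were on the higher side in DKO, where 47.2% of all chr5 windows were, and the median was log2 0.48 against -0.04 for chr5. In 100-kb windows 45 of the 72 tested were higher by fragments, where 49% of chr5 was, with a median of log2 0.12. By reads 27 of 32 were higher, where 44.5% of chr5 was, with medians of 0.73 and -0.11. Without EV replicate 2 the region's median was log2 0.19 by fragments and 0.30 by reads. Higher were 27 and 25 windows, where 49.5% and 49.4% of chr5 were. Without EV replicate 1 the median was 0.86 and 1.14, with 30 and 32 higher, where 47.2% and 46.7% of chr5 were. Without TMM the reads gave 20 of 32, where 23.4% of chr5 was higher, with medians of 0.20 and -0.71. The direction of the smaller read changes therefore depends on the scaling. Scaled to the windows 2 to 10 Mb away alone, on both sides, 27 of 32 were higher by fragments, where 52.4% of that set was. By reads 22 were higher, where 42.2% of the set was. The region is itself part of that set. Among the lowest p-values by fragments was that of chr5:167352458-167602457, the last TENM2 window, at 2.08 ± 0.44 fragments per 1000 listed on chr5 in EV and 4.08 ± 0.34 in DKO (adjusted p = 0.553 by edgeR, log2 0.97, SE 0.41). Next was the window of the SLIT3 stretch nearest the viewpoint, chr5:168602458-168852457, at 2.86 ± 2.25 and 4.92 ± 0.57 (log2 0.71, SE 0.37). Without EV replicate 2, which had 5 fragments there, it stood at 0.16.
By reads the lowest p-values were those of chr5:166102458-166352457, the last desert window, at 1056 ± 32.6 CPM in EV and 1938 ± 116 in DKO (adjusted p = 0.707 by edgeR, log2 1.46, SE 0.56), of the last TENM2 window (log2 1.43, SE 0.57) and of chr5:166852458-167102457 in TENM2 (log2 1.32, SE 0.61).

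**Figure D5:**
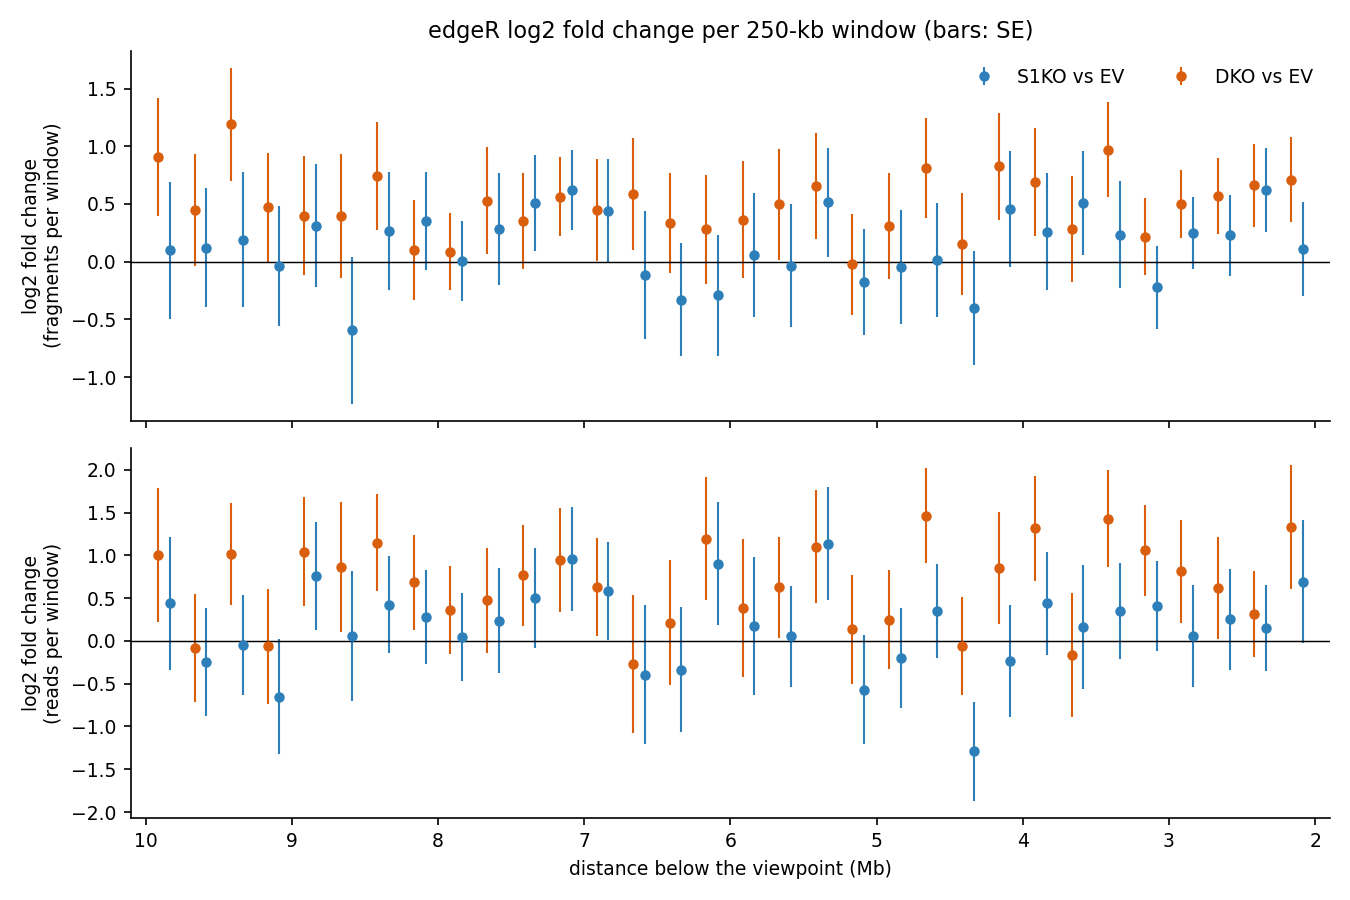
edgeR log2 fold change of each 250-kb window (y axis) against its distance below the viewpoint in Mb (x axis), by fragments (top) and by reads (bottom), for S1KO against EV in blue and DKO against EV in orange, with bars of 1 SE. Most orange points lie above 0 while none passed the adjusted threshold, and with reads the height of all points depends on the scaling.

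Summed by stretch, the same fit gave fragments in DKO against EV at log2 0.98 (SE 0.32) for the GABA receptors, 0.84 (SE 0.26) for TENM2, 0.78 (SE 0.23) for SLIT3 and 0.58 (SE 0.18) for the second desert, with edgeR adjusted p-values of 0.143 to 0.186. The first desert stood at 0.54 (SE 0.25), WWC1 to PANK3 at 0.50 (SE 0.24) and CCNG1 to MAT2B at 0.21 (SE 0.34). None passed, and differences between stretches were not tested. With 1 library left out SLIT3 ran from log2 0.25 to 1.42, TENM2 from 0.49 to 1.10 and the GABA receptors from 0.59 to 1.30. By reads the same 4 stretches stood at 0.62, 0.94, 0.75 and 0.68, with SEs of 0.51 to 0.55 and adjusted p-values of 0.793 to 0.897, and WWC1 to PANK3 at 0.95 (SE 0.55). Without TMM these read values were 0.03, 0.36, 0.21 and 0.09, and 0.33 for WWC1 to PANK3. The fragment values of the same 4 stretches were 0.80, 0.67, 0.60 and 0.41 without TMM. The first desert then stood at 0.36, WWC1 to PANK3 at 0.33 and CCNG1 to MAT2B at 0.03. With TMM the window before TENM2 stood at 0.28 (SE 0.47) by fragments and -0.02 (SE 0.58) by reads. The sums by stretch and the region as 1 row were chosen after the data had been seen.

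For DKO against S1KO, which asks what the loss of silencer 2 adds, edgeR called 0 of 32 windows by either measure. On chr5 it called 0%. Under 0.05 unadjusted were 1 window by fragments and 0 by reads, beside 27 of 597 and 24 of 708 on chr5. DESeq2 called 0, with 0 and 2 under 0.05 unadjusted, beside 1 and 49 on chr5. By fragments 28 of 32 windows were on the higher side in DKO, where 49.6% of chr5 was, and by reads 29, where 49% was. The comparison shares its DKO libraries with the one against EV. Among the lowest p-values by fragments were those of the last TENM2 window (log2 0.74, SE 0.39) and the last desert window (log2 0.80, SE 0.42), both at an adjusted p of 0.913 by edgeR. By reads the lowest p was that of the window before TENM2 (adjusted p = 0.992 by edgeR, log2 1.23, SE 0.58), followed by the last desert window (log2 1.12) and the last TENM2 window (log2 1.08).

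In simulated windows with the fitted spread, 4-fold changes in DKO against EV were called in 58.9% of 90 windows by fragments. By reads they were called in 3% of 100. For 2-fold changes the shares were 13.3% and 0%. Of the unchanged windows 2 were called by fragments and 0 by reads. Across chr5, most 2-fold differences in single simulated windows were therefore not called by either measure. The simulation took the levels of all tested chr5 windows, and detection in the region's own windows was not simulated separately. It drew each window independently, so a shift of a whole library across the region was not part of it. In each library, windows farther than 10 Mb below averaged fewer fragments (4.83 to 7.53) than the region's windows (7.25 to 22.5).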

How the data were processed

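HindIII made the first cut and DpnII the second, per the labels' protocols. The submitters' processing notes name Bowtie2 2.2.5 and the build hg19. The interaction caller is not given in the sources used here. The read counts per fragment are raw as deposited by the authors, for fragments with at least 1 read in that library. Each fragment also has a p-value and a q-value, deposited by the authors. Their RPM-like column is a score as deposited by the authors, and was not used.

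Members, stretches and tests were chosen with earlier results of these data known. The viewpoint fragment was that with most chr5 reads, and fragments within 10 kb of it were left out. Reads, and fragments with at least 1 read, were summed in 250-kb windows and tested with edgeR 4.0.16 (R 4.3.3; 6 libraries in 1 fit, TMM, at least 10 reads or 5 fragments in 2 libraries, Benjamini-Hochberg over chr5). CPM and per-1000 values leave out TMM. Ratios and shares were compared by exact permutation tests (Python 3.11.15, scipy 1.17.1). The text names, per comparison and measure, the 3 windows with the lowest p, the 3 windows with most and the 3 with fewest EV fragments (ties included), the 5 fragments with most EV reads and the 10 fragments seen in every library with the highest minimum. 1 window that this rule names, with the lowest p by fragments in both DKO comparisons and among the fewest EV fragments, is not reported here. DESeq2 1.42.0, other scalings, filters and window sizes, a cap on reads per fragment, a block for the replicate number and leaving out each library were alternatives. Same-numbered replicates did not deviate together (correlations of -0.15 to 0.10 over 32 windows), so the numbers were not used as pairs. The fit was tested on simulated data.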

Additional observations from a re-analysis of the deposited data

How the results depend on the processing

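In the 42 alternative fits by fragments and 45 by reads, each comparison counted, 0 windows of the region were called, with the lowest adjusted p at 0.0514 by fragments and 0.0539 by reads, both without EV replicate 1. With the replicate number as a block there were also 0 calls, with a lowest adjusted p of 0.756 by fragments and 0.738 by reads for DKO against EV, and the differences of shares and ratios were unchanged by construction (for example 2.86 points for the share of fragments, DKO minus EV). Gene over desert (log2, mean of 6 libraries) moved with windows of at least 2 genes to 1.35 by reads and 0.904 by fragments, without windows 28 to 32 to 0.244 and 0.0554, per listed fragment to 0.628 by reads, and without window 12 to 0.918 by reads. Leaving out windows 28 to 32 (WWC1 to SLIT3) or window 12 (the desert island) was chosen after seeing the data.

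Signs turned as follows. For gene over desert, windows of at least 2 genes gave DKO minus EV -0.0384 by reads and -0.0732 by fragments, and S1KO minus EV -0.0845 by fragments. Without windows 28 to 32 DKO minus EV was -0.0133 by reads, and without window 12 S1KO minus EV was 0.0279 by reads. With 1 library left out, gene over desert ran from -0.208 to 0.0143 (S1KO minus EV, reads), -0.0104 to 0.212 (DKO minus EV, reads), -0.112 to 0.309 (S1KO minus EV, fragments) and -0.0263 to 0.395 (DKO minus EV, fragments). The share of chr5 ran from -0.760 to 0.924 points (S1KO minus EV, reads), -0.305 to 1.38 (DKO minus EV, reads) and -0.448 to 2.31 (S1KO minus EV, fragments). Below over above ran from -0.279 to 0.0519 (S1KO minus EV, fragments). The window chr5:163352458-163602457 ran from -0.16 to 0.86 (S1KO against EV, fragments). Without TMM the read changes of summed stretches turned for S1KO against EV at the first desert (-0.0204), CCNG1 to MAT2B (-0.149), TENM2 (-0.0073) and WWC1 to PANK3 (-0.0050). They also turned at CCNG1 to MAT2B for DKO against EV (-0.206) and against S1KO (-0.0569), and at the second desert for DKO against S1KO (-0.0690). The cause was not tested. Low fragment counts limit single windows: EV replicate 2 held 2 to 16 fragments per window.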
